A study of Mus musculus with 18 samples.

Results

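The genes described here are Id2, Id3, Tcf3, Tcf12 and Zbtb16, chosen by name as the Id proteins, the E proteins and PLZF. They are 5 of the 55494 genes in the RNA count tables, and all 5 had at least 1 unique molecular identifier (UMI, a tag that counts 1 captured RNA molecule). They were measured in 1331 thymocytes from 6 bone marrow chimeras by droplet RNA sequencing with antibody tags. Each thymus held donor T cells with 1 of 2 transgenic receptors that see ovalbumin. OT2 is restricted by MHC class II and OT1 by MHC class I. The 6 groups, with 1 mouse each, were OT2 in a host with ovalbumin made under the rat insulin promoter (RIPmOVA, labelled NegSelected), OT2 in a wild-type C57BL6/Ncr host (PosSelected), OT2 in a host lacking selecting MHC (NoSelection), and OT1 in the same 3 kinds of host. The labels give both NoSelection hosts as B6.Ly5.1/Ncr (CD45.1) and the other hosts as CD45.2, so lack of MHC and host strain cannot be told apart. The OT1 NoSelection host lacked B2m. For the OT2 NoSelection host the treatment label names MHC class II deficiency and a comment names B2m deficiency, and the first is used here. All 6 mice were female and 14 weeks old, were taken 6 weeks after transplant, and had received 30% donor marrow (CD45.1.2) with 70% wild-type competitor marrow (CD45.1). Thymi were dissociated mechanically and not pooled, and CD44lo CD45.1.2+ Va2+ Vb5+ cells were sorted.

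E proteins are basic helix-loop-helix transcription factors that bind DNA as dimers at the E-box motif. Tcf3 encodes E2A and Tcf12 encodes HEB, which together drive recombination-activating genes and other genes of thymocytes before selection. Id proteins lack the DNA-binding basic region, so an E protein paired with Id2 or Id3 does not bind. In mouse thymocytes Id3 is known to be induced by receptor signals through Egr factors, and Id2 is known from innate lymphocytes and effector T cells. Zbtb16 encodes PLZF, a BTB zinc finger factor known from invariant natural killer T cells and from a subset of gamma delta T cells with the Vg1.1 receptor.

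In the RefSeq annotation of GRCm38.p6, the release of the files' build mm10, Id2 lies at chr12:25093799-25096092, Id3 at chr4:136143822-136145392, Tcf3 at chr10:80409541-80433976, Tcf12 at chr9:71844252-72111893 and Zbtb16 at chr9:48651797-48836225. The RefSeq promoter table held 4 of the 5 genes. Its 250 bases upstream of each start were searched for the E-box CANNTG, which reads the same on both strands. At least 1 E-box was found in 66.2% of 32851 promoters, at least 2 in 31.8% and at least 3 in 12.2%. Id3 had 0 matches in its 250 bases. Rag1, an E protein target whose level was correlated with that of Tcf12 across the sums described below, was added to the members. Stretches of 80 bases, placed to include matches, are shown for Rag1 and for the members that had a match. All lie on the minus strand, are written 5′ to 3′, and have the E-boxes in capitals. The stretches are Id2 at chr12:25096243-25096322, Tcf3 at chr10:80433646-80433725, Tcf12 at chr9:72111990-72112069 (the first of its 3 annotated starts) and Rag1 at chr2:101649603-101649682.
Id2: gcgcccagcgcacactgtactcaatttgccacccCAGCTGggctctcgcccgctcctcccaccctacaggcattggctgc
Tcf3: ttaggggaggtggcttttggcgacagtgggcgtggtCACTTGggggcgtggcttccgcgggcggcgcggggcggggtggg
Tcf12: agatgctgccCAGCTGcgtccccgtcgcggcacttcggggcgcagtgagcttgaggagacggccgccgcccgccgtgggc
Rag1: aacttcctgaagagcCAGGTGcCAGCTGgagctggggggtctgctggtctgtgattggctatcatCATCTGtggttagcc
The Rag1 stretch held 3 E-boxes, and each of the other 3 held 1. Other E protein targets of the list described below had fewer or as many in their 250 bases. Dntt had 3, Ptcra 2, Rag2 1, Gfi1 1 at each of its 2 starts and Notch1 0.

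Cells were assigned to 4 gates by CD4 and CD8A antibody UMIs, with thresholds of 82.7 UMIs for CD4 and 52.9 UMIs for CD8A. UMIs were summed per mouse and gate, and the 17 sums of at least 20 cells were used. They comprised 3 CD4+CD8- sums (OT2 NegSelected, OT2 PosSelected and OT1 PosSelected), 4 CD4-CD8+ sums (OT2 NegSelected and all 3 OT1 mice), 4 CD4+CD8+ sums (all 3 OT2 mice and OT1 PosSelected) and 6 CD4-CD8- sums. Gate and receptor are therefore unevenly mixed. RNA totals were 525843 to 1867488 UMIs per mouse. Median depth was 2756 to 3022 UMIs per cell in OT2 mice and 4733 to 5385 in OT1 mice. A gate drawn on the share of a cell's antibody UMIs, rather than on the UMIs as counted, placed 1021 of the 1331 cells in the same gate. The gate labels held only in part at the RNA level. Cd4 reached 231 CPM (counts per 1000000 UMIs of the sum) in the CD4-CD8- sum of OT2 PosSelected, and 4.18 to 84.9 CPM in the other 5 CD4-CD8- sums. Markers of gamma delta T cells summed to 356 to 2184 CPM per mouse, and 6 of 6 were detected among cells sorted for an alpha beta receptor.

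Among the sums of at least 20 cells, Tcf12 was highest in CD4+CD8+ cells of the OT2 mice and low in every CD4+CD8- sum. In CD4+CD8- cells it stood at 177 CPM in OT2 NegSelected, 157 CPM in OT2 PosSelected and 219 CPM in OT1 PosSelected. In CD4-CD8+ cells it stood at 299 CPM in OT2 NegSelected, and at 209.7, 164 and 199 CPM in OT1 NegSelected, PosSelected and NoSelection. In CD4+CD8+ cells it stood at 533, 476 and 879 CPM in OT2 NegSelected, PosSelected and NoSelection, and at 198 CPM in OT1 PosSelected. The 3 OT2 sums of CD4+CD8+ cells lay above every CD4+CD8- and CD4-CD8+ sum of at least 20 cells, while the OT1 sum lay among them. Below that limit, the 14 CD4-CD8+ cells of OT2 NoSelection held 892 CPM (exact Poisson 95% interval 670 to 1163 CPM), from 54 UMIs in 12 cells. This lay above all 3 OT2 sums of CD4+CD8+ cells. The other small CD4+CD8- and CD4-CD8+ sums held 31.8 to 217 CPM. The 6 CD4-CD8- sums ran from 258 CPM through a median of 295 to 406 CPM and overlapped the CD4-CD8+ sums. In summed RNA, fewer cells expressing a gene and less RNA per cell cannot be told apart.

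With each mouse as a block, Tcf12 differed by a log2 fold change of -1.02 ± 0.29 (SE) between CD4+CD8- and CD4+CD8+ cells (edgeR's quasi-likelihood test, Benjamini-Hochberg adjusted p = 0.0819). The difference between CD4-CD8+ and CD4+CD8+ cells was -0.86 ± 0.27 (adjusted p = 0.180 by the same edgeR test). Neither passed the threshold of 0.05. The first passed in 4 of 16 alternative fits, in which its adjusted p ran from 0.00413 to 0.622. Leaving out OT1 PosSelected gave -1.41 with an adjusted p of 0.00413 in edgeR's test, DESeq2 gave -1.04 with an adjusted p of 0.0236, limma-voom gave -1.01 with an adjusted p of 0.0334, and the gate on antibody shares gave -1.21 ± 0.31 with an adjusted p of 0.0173. The direction was the same in all 16, which reuse the same mice. Within mice, Tcf12 was lower in CD4+CD8- than in CD4+CD8+ cells of OT2 NegSelected and PosSelected. OT1 PosSelected had the opposite order, at 219 against 198 CPM, and is the mouse whose removal gave the lowest adjusted p. Between CD4+CD8+ and CD4-CD8- cells Tcf12 differed by 0.40 ± 0.22 on the log2 scale (adjusted p = 0.429, edgeR).

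The share of cells with a Tcf12 UMI in this gate was also higher in the 3 OT2 mice than in OT1 PosSelected, with intervals that overlapped in part. With each cell thinned to 1500 UMIs, and shallower cells left out, a Tcf12 UMI was found in 25 of 49, 13 of 20 and 15 of 25 CD4+CD8+ cells in OT2 NegSelected, PosSelected and NoSelection, and in 6 of 30 in OT1 PosSelected. Without thinning the shares were 60.0%, 77.3% and 78.1% in the same OT2 mice and 51.5% in OT1 PosSelected. No cell type known to lack Tcf12 was sorted, so a background share from free RNA was not measured. Rag1, a subunit of the recombinase, stood at 180, 65.7 and 1546 CPM in CD4+CD8+ cells of the 3 OT2 mice in the same order, and had 0 UMIs in those of OT1 PosSelected. The change of Tcf12 from CD4-CD8- to CD4+CD8+ cells differed between OT2 and OT1 by 1.03 ± 0.42 on the log2 scale, which did not pass the test (adjusted p = 0.808, edgeR's interaction test). In that fit 0% of 7006 genes were called, against 428 at an unadjusted p under 0.05, and DESeq2 also called 0.

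Tcf3 varied less between gates. It stood at 79.6 and 94.2 CPM in CD4+CD8- cells of OT2 NegSelected and PosSelected and at 197 CPM in those of OT1 PosSelected. The CD4-CD8+ sums held 118 to 132 CPM, the CD4+CD8+ sums 131 to 192 CPM, and the CD4-CD8- sums 135 to 188 CPM with a median of 148. The CD4-CD8+ sums lay just under the CD4-CD8- sums, and the other gates overlapped. The 6 log2 differences between gates lay from -0.51 to 0.16, with adjusted p of at least 0.447 in edgeR's test. Among Tcf3 and Tcf12 UMIs together, Tcf12 made up 74.0%, 78.4% and 83.1% in CD4+CD8+ cells of OT2 NegSelected, PosSelected and NoSelection. In those of OT1 PosSelected it made up 50.8% (exact 95% binomial interval 37.9 to 63.6%). The interval of OT2 NoSelection, 71.7 to 91.2%, lay above that of OT1 PosSelected. These intervals cover counting error only. The third E protein gene, Tcf4, had 271 UMIs in 202 cells.

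**Figure D1:**
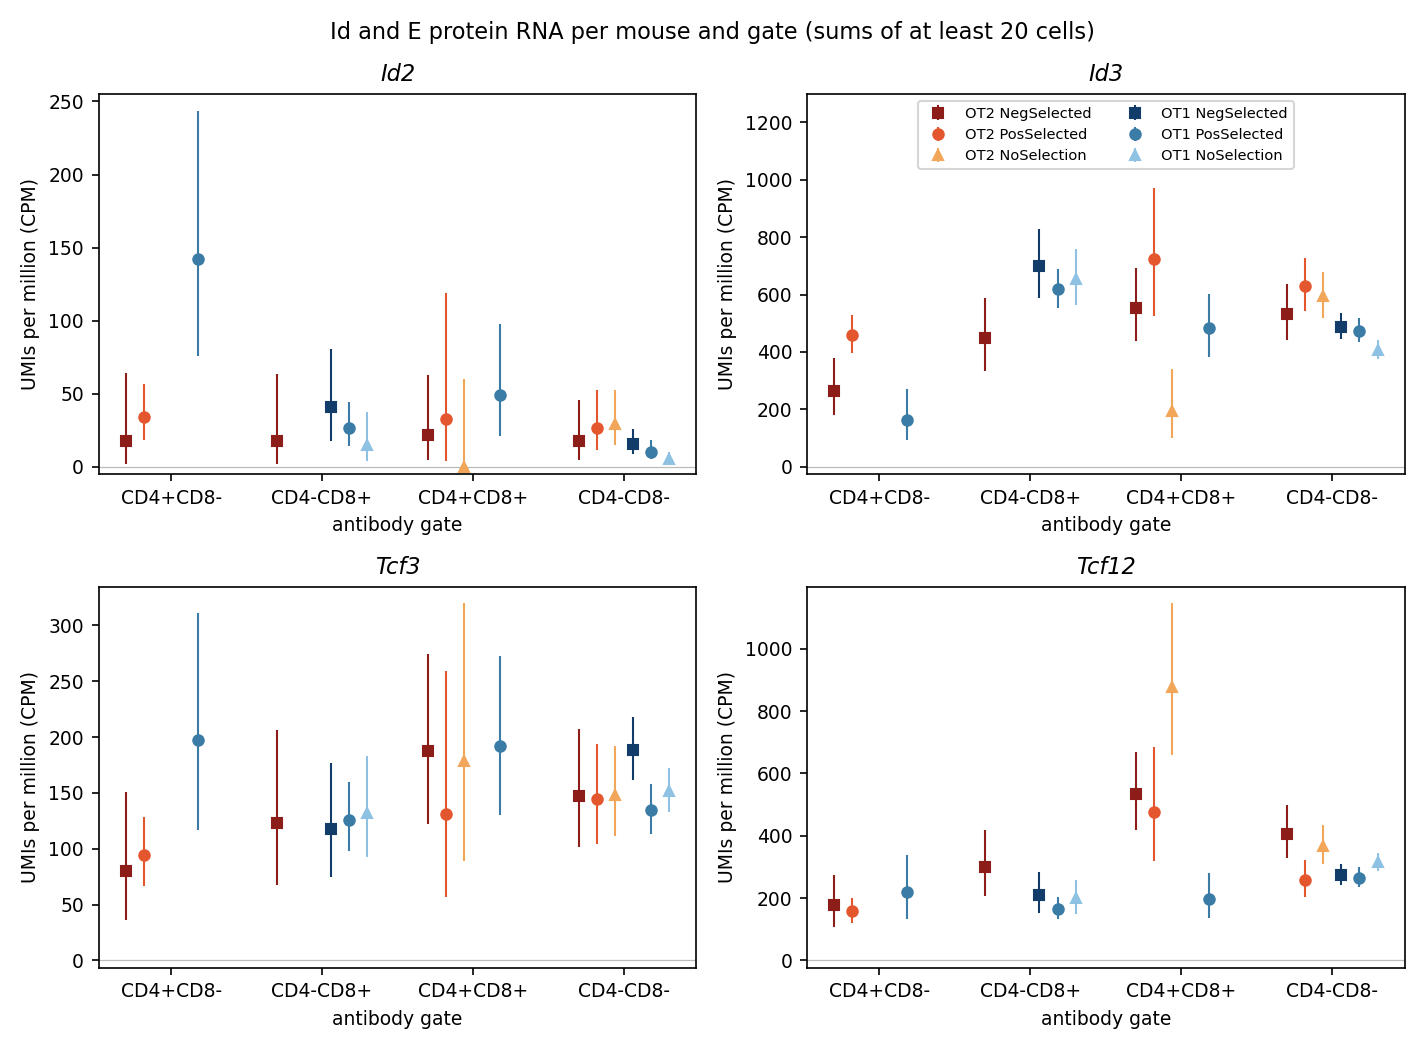
RNA level in CPM (linear axes from 0) of Id2, Id3, Tcf3 and Tcf12 in each antibody gate. Points are sums of at least 20 cells of 1 mouse, coloured by receptor and host, and bars are exact Poisson 95% intervals for counting error. Tcf12 in OT2 CD4+CD8+ cells (476 to 879 CPM) lies above all CD4+CD8- and CD4-CD8+ points, and Id3 in OT2 NoSelection CD4+CD8+ cells (195 CPM) lies below the other CD4+CD8+ points.

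Among sums of at least 20 cells, Id3 was high in CD4-CD8+ cells of OT1 mice and in CD4+CD8+ and CD4-CD8- cells of OT2 PosSelected. Of these sums, it was lowest in CD4+CD8- cells of OT1 PosSelected and in CD4+CD8+ cells of OT2 NoSelection. In CD4+CD8- cells it stood at 265 CPM in OT2 NegSelected, 459 CPM in OT2 PosSelected and 164 CPM in OT1 PosSelected. In CD4-CD8+ cells it stood at 448 CPM in OT2 NegSelected, and at 701, 619 and 655 CPM in OT1 NegSelected, PosSelected and NoSelection. The 3 OT1 sums of CD4-CD8+ cells lay above all 3 CD4+CD8- sums, but the OT2 sum of 448 CPM lay just under the highest of them. Smaller CD4+CD8- sums, not in the main fit, held 955 CPM in OT1 NoSelection (46 UMIs in 4 of 10 cells) and 763 CPM in OT2 NoSelection (24 UMIs in 5 of 7 cells). Both lay above every CD4-CD8+ sum. The CD4+CD8- cells of OT1 NegSelected held 133 CPM, from 6 UMIs. Smaller CD4-CD8+ sums held 310 CPM in OT2 PosSelected and 413 CPM in OT2 NoSelection. The 15 Id3 UMIs of OT1 PosSelected CD4+CD8- cells came from 2 of 24 cells. Between CD4+CD8- and CD4-CD8+ cells Id3 differed by -1.21 ± 0.34 on the log2 scale (adjusted p = 0.240, edgeR), which did not pass. It passed in 2 of 16 alternative fits, at -1.26 without a filter on low counts (adjusted p = 0.00844) and at -1.88 ± 0.38 with the gate on antibody shares (adjusted p = 0.0157), both by edgeR's test. The 16 alternatives gave adjusted p of 0.00844 to 0.847 and negative differences.

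Within CD4+CD8+ cells, Id3 stood at 555, 723 and 195 CPM in OT2 NegSelected, PosSelected and NoSelection, and at 483 CPM in OT1 PosSelected. The value of OT2 NoSelection rests on 12 UMIs, and its counting interval of 101 to 341 CPM lies below the 3 other values. The ratio to NoSelection was 3.70 in OT2 PosSelected (exact 95% interval 1.92 to 7.70) and 2.84 in OT2 NegSelected (1.54 to 5.74). Tcf12 went the other way in these cells, with a ratio to NoSelection of 0.542 in OT2 PosSelected (0.333 to 0.866) and 0.607 in OT2 NegSelected (0.422 to 0.878). With 1 mouse per host these intervals carry no replicate check. The gate on antibody shares also gave the OT2 NoSelection mouse the lowest Id3 level of the gate, at 164 CPM, against 744 and 750.3 CPM in OT2 NegSelected and PosSelected and 527 CPM in OT1 NoSelection. In CD4-CD8- cells Id3 ran from 407 CPM through a median of 510.0 CPM to 630.4 CPM, and the OT2 NoSelection mouse held 594 CPM, within the range of the others. Summed over all cells of a mouse, Id3 was 460 to 536 CPM.

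Id2 was scarce, with 153 UMIs in 104 cells. Among the sums of at least 20 cells, its highest was 142 CPM (exact Poisson 95% interval 75.7 to 243 CPM) in CD4+CD8- cells of OT1 PosSelected, from 13 UMIs in 10 of 24 cells. The OT2 sums of this gate with at least 20 cells held 17.7 CPM in NegSelected, from 2 UMIs, and 33.8 CPM in PosSelected, from 14 UMIs. Below that limit, the 7 CD4+CD8- cells of OT2 NoSelection held 413 CPM (220 to 707 CPM), from 13 UMIs in 4 cells. The 10 cells each of OT1 NegSelected and NoSelection in this gate held 0 and 41.5 CPM. CD4-CD8+ sums held 14.7 to 40.9 CPM. CD4+CD8+ sums held 21.6, 32.8 and 0 CPM in OT2 NegSelected, PosSelected and NoSelection, the last with a limit of 48.8 CPM for a count of 0, and 49.5 CPM in OT1 PosSelected. CD4-CD8- sums held 5.27 to 29.5 CPM. Among the sums of at least 20 cells, all gates overlapped apart from the 1 sum at 142 CPM. The difference between CD4+CD8- and CD4-CD8- cells was 1.77 ± 0.67 on the log2 scale (adjusted p = 0.349, edgeR). It passed in 1 of 9 alternative fits, the gate on antibody shares, at 2.22 ± 0.58 (adjusted p = 0.0219, edgeR). In that gate the CD4+CD8- sums held 33.5 and 33.9 CPM in OT2 NegSelected and PosSelected and 50.8 and 75.0 CPM in OT1 NegSelected and PosSelected. The CD4-CD8- sums of the same gate held 0 to 37.4 CPM. The receptor difference in this change, -3.58 ± 1.01 for OT2 over OT1, did not pass the edgeR interaction test with the gate on UMIs (adjusted p = 0.843). The 7 CD4+CD8- cells of OT2 NoSelection, at 413 CPM, were not in that fit. Id1 and Id4, the other Id genes, had 0 UMIs.

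Over the 6 pairs of gates, none of the 4 members that passed the filter on low counts (Id2, Id3, Tcf3 and Tcf12) was called at an adjusted p under 0.05 by edgeR. Of their 24 differences, 7 had an unadjusted p under 0.05, DESeq2 called 2 and limma-voom called 1. Of all 5896 genes tested, edgeR called 2.22% between CD4+CD8+ and CD4-CD8- cells, 0.950% between CD4+CD8- and CD4-CD8- cells and 0.950% between CD4-CD8+ and CD4-CD8- cells. It called 1.39% between CD4+CD8- and CD4+CD8+ cells, 0.136% between CD4-CD8+ and CD4+CD8+ cells and 0.136% between CD4+CD8- and CD4-CD8+ cells. Zbtb16 did not pass the filter of this fit. In the interaction of gate with receptor 0 of 12 differences of the same 4 members were called and 3 had an unadjusted p under 0.05, DESeq2 called 0, and 0%, 0.0143% and 0% of genes were called for the CD4+CD8+, CD4+CD8- and CD4-CD8+ gates against CD4-CD8- cells. Zbtb16 entered that fit, where its 3 differences had no usable fold and an adjusted p of 1 (edgeR).

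**Figure D2:**
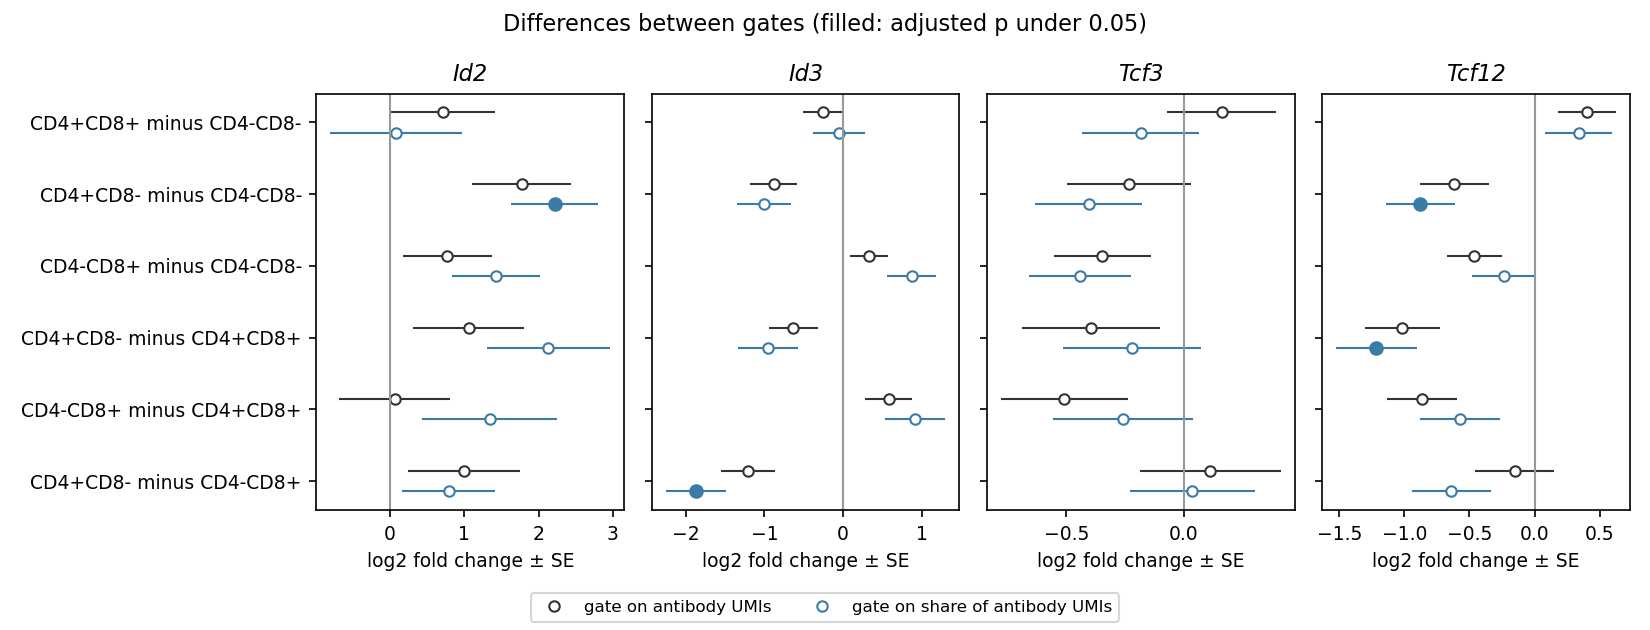
Log2 fold change ± SE between gates, first-named gate over second, for 4 genes. Black points use the gate on antibody UMIs and blue points the gate on antibody shares, and filled points have an adjusted p under 0.05 in edgeR's test. No black point is filled, and 4 blue points are: Id2 at 2.22 and Tcf12 at -0.88 for CD4+CD8- over CD4-CD8- cells, Tcf12 at -1.21 for CD4+CD8- over CD4+CD8+ cells, and Id3 at -1.88 for CD4+CD8- over CD4-CD8+ cells.

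The balance of inhibitors and E proteins was summarised as Id2 and Id3 UMIs divided by Tcf3 and Tcf12 UMIs. It was 2.27, 2.23 and 2.02 in CD4-CD8+ cells of OT1 NegSelected, PosSelected and NoSelection, and 1.1 in those of OT2 NegSelected. In CD4+CD8- cells it was 1.1 and 1.96 in OT2 NegSelected and PosSelected and 0.737 in OT1 PosSelected. In CD4+CD8+ cells it was 0.80, 1.24 and 0.185 in OT2 NegSelected, PosSelected and NoSelection, and 1.37 in OT1 PosSelected. The lowest value rests on 12 Id and 65 E protein UMIs. The 3 OT1 sums of CD4-CD8+ cells were the only sums above 2 among the 17, and OT2 NoSelection CD4+CD8+ cells held the lowest of all. Outside the 17, the smaller CD4+CD8- sum of OT2 NoSelection held 6.17, from 37 Id and 6 E protein UMIs. That of OT1 NoSelection held 3.43, from 48 Id and 14 E protein UMIs. Both lay above all of the 17. The CD4+CD8- sum of OT1 NegSelected held 0.545. Smaller CD4-CD8+ sums held 1.1 in OT2 PosSelected and 0.484 in OT2 NoSelection. Smaller CD4+CD8+ sums held 1.6 in OT1 NegSelected and 1.8 in OT1 NoSelection. The 6 CD4-CD8- sums spanned 0.883 to 1.63. Over whole mice the ratio was 0.957, 1.69 and 0.957 in OT2 NegSelected, PosSelected and NoSelection and 1.24, 1.43 and 1.06 in the OT1 mice in the same order, so PosSelected was the highest host for both receptors.

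**Figure D3:**
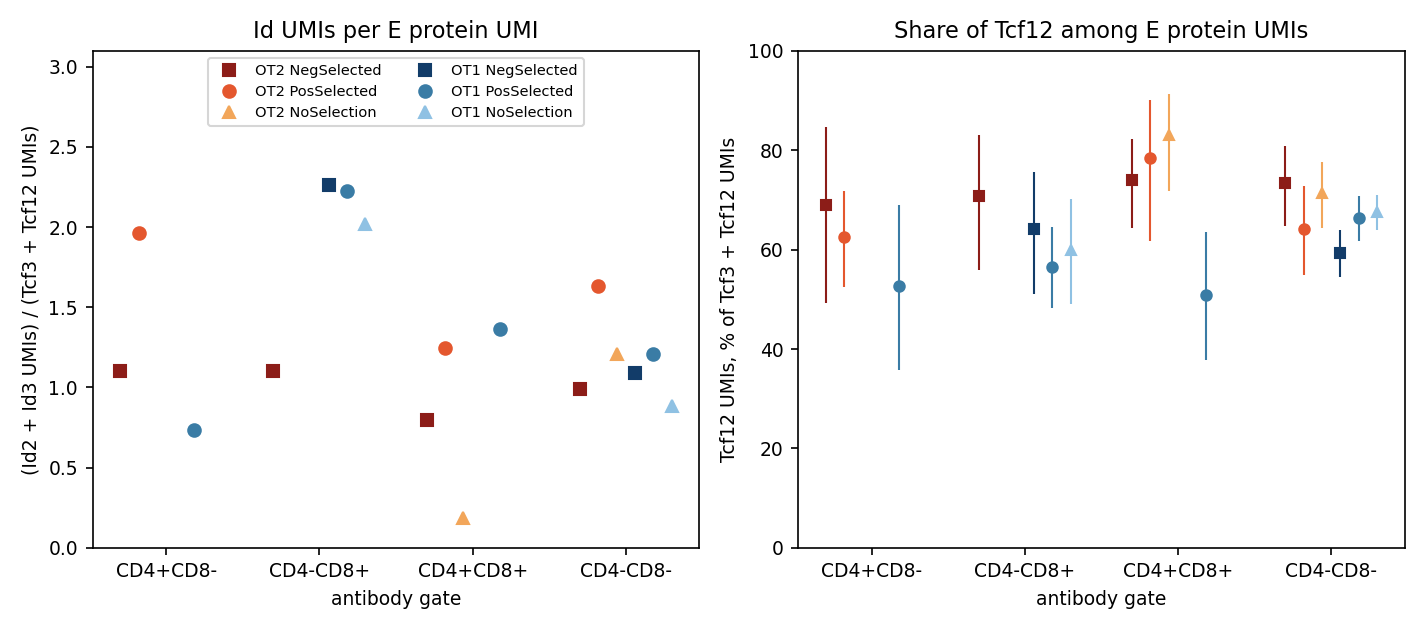
Left, Id2 and Id3 UMIs per Tcf3 and Tcf12 UMI in each sum of at least 20 cells, by antibody gate and mouse; right, Tcf12 UMIs as a percentage of Tcf3 and Tcf12 UMIs, with exact 95% binomial intervals for counting error. The ratio is 2.02 to 2.27 in OT1 CD4-CD8+ cells and 0.185 in OT2 NoSelection CD4+CD8+ cells, where the Tcf12 share is 83.1%.

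CD69 is a surface protein that rises after receptor signalling. Its share of antibody UMIs was used to split the CD4+CD8+ cells of each mouse into an upper and a lower group of 11 to 30 cells. Median CD69 UMIs in CD69-upper and CD69-lower cells were 30 and 15, 24 and 16, and 21 and 12 in OT2 NegSelected, PosSelected and NoSelection. In OT1 PosSelected they were 32.5 and 21.5. The groups rank cells within a mouse and set no level for a signalled cell. Id3 stood at 446, 383 and 177 CPM in CD69-upper cells of OT2 NegSelected, PosSelected and NoSelection, against 663, 1151 and 218 CPM in CD69-lower cells of the same mice. In OT1 PosSelected it stood at 243 CPM in CD69-upper and 732 CPM in CD69-lower cells. It was lower in CD69-upper cells in 4 of 4 mice, though OT2 NoSelection had 6 Id3 UMIs in each group. The log2 difference was -1.09 ± 0.26 with an unadjusted p of 0.000294, and it did not pass over the 1253 genes tested (adjusted p = 0.123, edgeR). It passed without a filter on low counts, at -1.11 (adjusted p = 0.0409, edgeR), and without OT2 NoSelection, at -1.19 (adjusted p = 0.0110, edgeR). With the gate on antibody shares it was -0.06 (adjusted p = 0.992, edgeR). The 10 alternatives gave adjusted p of 0.0110 to 0.999. Cd69 RNA differed by -0.11 ± 0.54 between the same cells (adjusted p = 0.999, edgeR).

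Tcf12 stood at 489.5, 412 and 765 CPM in CD69-upper cells of OT2 NegSelected, PosSelected and NoSelection, against 577, 557 and 1018 CPM in CD69-lower cells. In OT1 PosSelected it stood at 167 CPM in CD69-upper and 149 CPM in CD69-lower cells. The difference was -0.22 ± 0.24 (adjusted p = 0.994, edgeR), and it was -1.03 (adjusted p = 0.0341, edgeR) when cells were ranked by CD69 UMIs as counted. Tcf3 differed by 0.23 ± 0.38 (adjusted p = 0.994, edgeR). Among the 3 members tested 0 were called, 1 had an unadjusted p under 0.05, and DESeq2 also called 0, where edgeR called 0.0798% of all genes. Median depth in CD69-upper and CD69-lower cells was 2134 and 2432, 2520 and 2479, and 2086 and 1709 UMIs in OT2 NegSelected, PosSelected and NoSelection, and 4839.5 and 4434 UMIs in OT1 PosSelected. The part of depth in these differences was not tested.

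**Figure D4:**
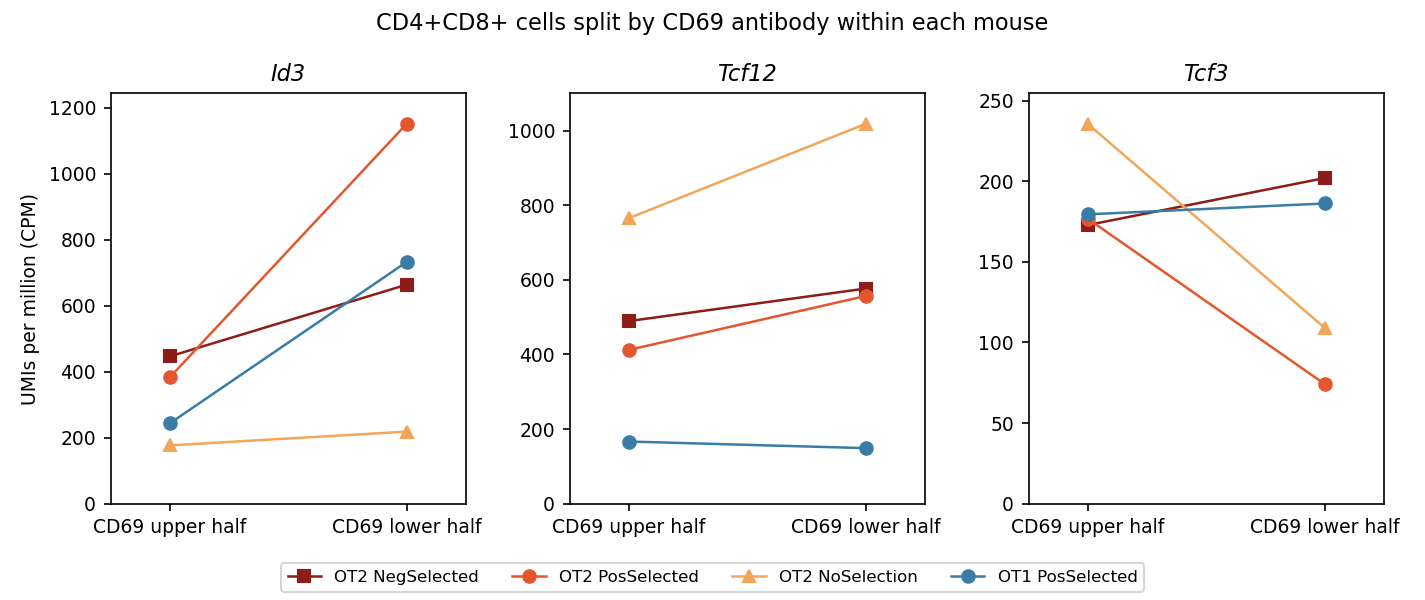
RNA level in CPM (linear axes from 0) of Id3, Tcf12 and Tcf3 in CD4+CD8+ cells above and below the middle of the CD69 antibody share, joined within each of the 4 mice with enough cells. Id3 is lower in the CD69-upper cells in 4 of 4 mice, from 383 against 1151 CPM in OT2 PosSelected to 177 against 218 CPM in OT2 NoSelection.

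CD24, a surface protein that falls as thymocytes mature, was used in the same way to split CD4-CD8- cells of all 6 mice. Id3 stood at 706, 659 and 440.1 CPM in CD24-upper cells of OT2 NegSelected, PosSelected and NoSelection, against 252, 601 and 799 CPM in CD24-lower cells. In OT1 NegSelected, PosSelected and NoSelection it stood at 413, 417 and 399 CPM in CD24-upper cells, against 606, 556 and 418 CPM in CD24-lower cells. It was lower in CD24-upper cells in 4 of 6 mice and higher in 2. The log2 differences were -0.20 for Id3 (adjusted p = 0.588, edgeR), 0.17 for Tcf12 (adjusted p = 0.544, edgeR) and 0.11 for Tcf3 (adjusted p = 0.773, edgeR). None of the 3 was called, none had an unadjusted p under 0.05 and DESeq2 called 0, while 5.22% of the 6340 genes tested were called by edgeR. Of genes from the lists described below, Cd69 fell by 0.64, Icos fell by 1.49 and Il2rb fell by 1.90 on the log2 scale in CD24-upper over CD24-lower cells, all called by edgeR.

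Between hosts and receptors, Tcf12 had the lowest unadjusted p of the members over whole mice. It was 372, 221 and 468 CPM in OT2 NegSelected, PosSelected and NoSelection, and 257, 228 and 291 CPM in OT1 NegSelected, PosSelected and NoSelection, so PosSelected was the lowest and NoSelection the highest host for both receptors. PosSelected over NoSelection was 0.472 in OT2 (exact 95% interval for counting error 0.387 to 0.575) and 0.785 in OT1 (0.690 to 0.893). The log2 difference over both receptors was -0.64 ± 0.21 (adjusted p = 0.505, edgeR). The share of cells in the gates differed between these mice: CD4+CD8+ cells were 22 of 254 in OT2 PosSelected, against 32 of 108 in OT2 NoSelection. Within CD4-CD8- cells alone the ratio of PosSelected to NoSelection was 0.702 in OT2 and 0.841 in OT1.

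Id3 over whole mice differed by 0.03 between OT2 and OT1 (adjusted p = 0.953, edgeR), and Tcf12 by 0.36 (adjusted p = 0.425, edgeR). Id2 over whole mice was 18.7, 31.0 and 55.1 CPM in OT2 NegSelected, PosSelected and NoSelection, and 21.1, 24.7 and 8.03 CPM in OT1 NegSelected, PosSelected and NoSelection. NoSelection was thus the highest OT2 mouse and the lowest OT1 mouse. The OT2 over OT1 difference of Id2 was 0.93 ± 0.50 over whole mice (adjusted p = 0.479, edgeR) and 1.35 ± 0.57 within CD4-CD8- cells (adjusted p = 0.821, edgeR). Xist, a transcript of the inactive X chromosome of female cells, differed far more between the receptors. It was higher in OT2 by 7.27 over whole mice (adjusted p = 3.05e-05, edgeR) and by 7.22 within CD4-CD8- cells (adjusted p = 8.27e-06, edgeR). The part of donor sex in the receptor differences was not tested.

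Over whole mice edgeR called 0 of 16 member differences, 1 of which had an unadjusted p under 0.05, and DESeq2 and limma-voom called 0. It called 1.07% of 9092 genes for OT2 over OT1, 0.0110% for PosSelected over NoSelection, 0% for NegSelected over PosSelected and 0% for NegSelected over NoSelection. At an unadjusted p under 0.05 the last 2 had 418 and 236 genes, DESeq2 called 5 and 0 genes in them, and limma-voom called 0 in each. Within CD4-CD8- cells edgeR again called 0 of 16, 1 of which had an unadjusted p under 0.05, and DESeq2 and limma-voom called 0. There it called 0.384% of 8075 genes for OT2 over OT1 and 0% for each of the 3 host differences. These fits have 2 residual degrees of freedom, and samples of 1 mouse per group say nothing of how receptor and host combine.

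Zbtb16 had 48 UMIs in 9 of the 1331 cells, and 39 of these UMIs came from 5 cells of OT2 NoSelection. Over whole mice it stood at 1.70, 4.97 and 74.2 CPM in OT2 NegSelected, PosSelected and NoSelection (52.7 to 101 CPM for the last), and at 0.783, 0 and 1.61 CPM in OT1 NegSelected, PosSelected and NoSelection, where the count of 0 has a limit of 1.61 CPM. In CD4-CD8- cells of OT2 NoSelection, 32 UMIs in 4 cells made 85.9 CPM. No fold change is given, since the level rests on 1 mouse and a few cells. The 5 cells with at least 4 Zbtb16 UMIs held 16, 11, 7, 4 and 4 UMIs, the first 4 of them in OT2 NoSelection and the last in OT2 PosSelected.

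Receptor transcripts and antibody tags were read in these 5 cells. Trgv1, the V segment gene matched by its symbol in the files, had 12, 8, 13, 10 and 2 UMIs in them in the same order. Trdc, the delta chain constant gene, had 1, 0, 8, 1 and 8 UMIs, and Trac, the alpha chain constant gene, had 7, 10, 12, 17 and 4 UMIs. Sox13, a gamma delta marker, had 0 UMIs in all 5. Trgv1 and Trac were thus both found in each of the 5 cells. Their median was 67 UMIs for the TCRVG1.1 antibody, 67 for the TCRGD antibody, 6 for TCRB and 10 for TCRVA2, against medians of 10, 13, 14 and 31 over all 1331 cells. TCRVG1.1 was 46, 3, 234, 93 and 67 UMIs in the 5 cells, so 1 of them lay below the median of all cells. TCRGD was 13, 8, 173, 67 and 70 UMIs, above the median of all cells in 3 of the 5. With a level of 40 UMIs, chosen after the values were seen, 7 of 1331 cells exceeded it for TCRVG1.1, and 5 of these 7 had Zbtb16 UMIs. Trgv1 was found in 7 of the 9 Zbtb16-positive cells and in 210 of the 1322 others (15.9%). Within OT2 NoSelection it was found in 5 of 5 Zbtb16-positive cells and in 26 of the 103 others (25.2%). Klrb1c, which encodes the natural killer receptor NK1.1, had 0 UMIs in all 9, and the iNKT markers as a whole summed to 0 to 3.73 CPM per mouse, with 0 UMIs in OT2 NoSelection.

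Id2, whose product pairs with E proteins, was set beside Zbtb16 in the same cells. It had 20 UMIs in 5 of the 9 cells (55.6%, exact 95% interval 21.2 to 86.3%), or 215 CPM, against 99 of the 1322 other cells (7.49%, 6.13 to 9.04%), or 19.5 CPM. The median depth was 8900 UMIs in the 9 cells and 4032 in the others, and the part of depth in the shares was not tested. The intervals treat the cells of all mice as alike, although 5 of the 9 came from OT2 NoSelection. Within that mouse, Id2 was found in 4 of 5 Zbtb16-positive cells and in 9 of the 103 without Zbtb16 UMIs. Of 4 cells with at least 4 Id2 UMIs, 3 had Zbtb16 UMIs. Id3 was found in 8 of the 9 cells, with 0 to 25 UMIs a cell. A test across mice could not be fitted, because at most 4 Zbtb16-positive CD4-CD8- cells came from 1 mouse and 10 were required.

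**Figure D5:**
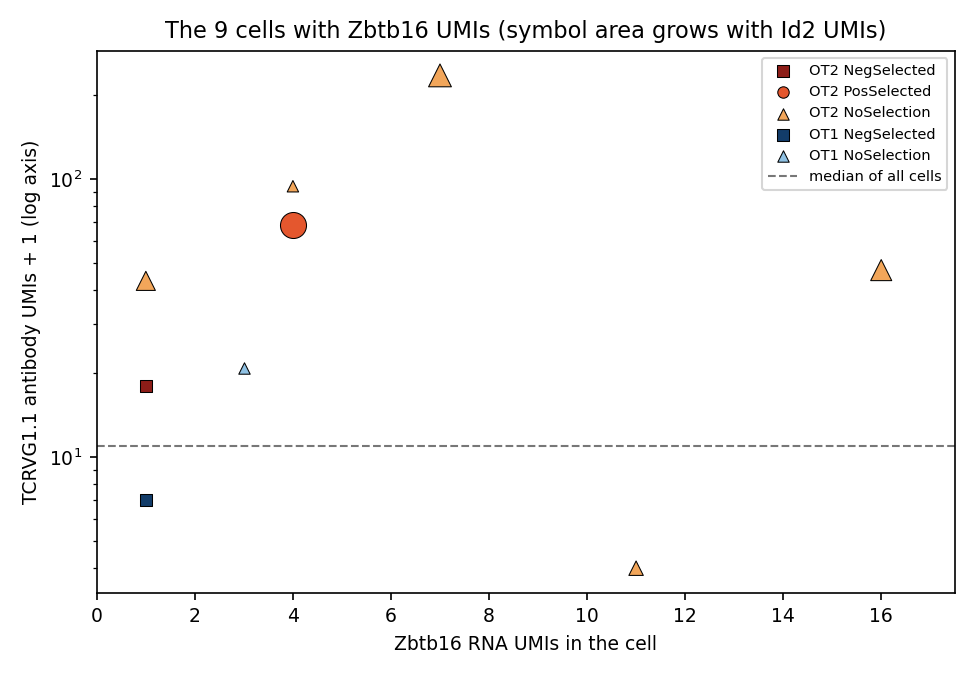
The 9 cells with Zbtb16 RNA, by Zbtb16 UMIs (linear axis) and TCRVG1.1 antibody UMIs plus 1 (log axis), coloured by mouse, with symbol area growing with Id2 UMIs. The dashed line is the median of all 1331 cells (10 UMIs). Of the 5 cells with at least 4 Zbtb16 UMIs, 4 lie above the line at 46 to 234 antibody UMIs and 1 lies below it at 3.

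The other genes of these pathways were taken from lists. In counts of listed genes, a gene rose or fell only where edgeR called it at an adjusted p under 0.05. Over all genes edgeR called 2.22% for CD4+CD8+ over CD4-CD8- cells, 1.39% for CD4+CD8- over CD4+CD8+ cells and 1.07% for OT2 over OT1 mice. Of 7 E protein targets, 6 were tested between gates. In CD4+CD8+ over CD4-CD8- cells 2 of the 6 rose, Rag1 and Rag2, the recombinase genes, by 3.52 ± 0.55 and 3.77 ± 0.85 on the log2 scale (adjusted p = 0.00112 and 0.0282, edgeR). The median of the list was 1.00, against -0.03 over all genes. In CD4+CD8- over CD4+CD8+ cells 3 of the 6 fell, among them Rag1 and Dntt, the terminal transferase gene. Dntt fell by 3.44 on the log2 scale (adjusted p = 0.0379, edgeR), and Rag1 had 0 UMIs in the CD4+CD8- sums. The median of the list was -3.74, against 0.02 over all genes. In OT2 over OT1 mice 3 of the 6 rose, among them Rag1 by 4.35 and Rag2 by 3.98. Dntt stood at 591, 509 and 1448 CPM in CD4+CD8+ cells of OT2 NegSelected, PosSelected and NoSelection and at 55.7 CPM in OT1 PosSelected, the same order of mice as Tcf12.

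Of 6 genes known to mark the receptor signals that induce Id3 (Egr1, Egr2, Egr3, Nr4a1, Cd69 and Cd5), 5 were tested between gates and none was called by edgeR in any pair, with up to 3 of 5 at an unadjusted p under 0.05. Cd5 came nearest, at 0.99 in CD4+CD8+ over CD4-CD8- cells (adjusted p = 0.0827, edgeR) and 0.99 in CD4-CD8+ over CD4-CD8- cells (adjusted p = 0.0864, edgeR). Of 8 E protein cofactors, 4 were tested and none was called, with up to 2 at an unadjusted p under 0.05. Of 12 PLZF-linked genes of innate-like T cells, 6 were tested. Rora, a nuclear receptor gene, fell by 2.42 on the log2 scale in CD4-CD8+ over CD4-CD8- cells (adjusted p = 0.00701, edgeR), and Sh2d1a, which encodes the adaptor SAP, fell by 1.49 in CD4+CD8- over CD4+CD8+ cells. Of 11 genes in the BTB zinc finger list, 9 were tested. Bcl6 rose by 1.96 in CD4+CD8+ and by 1.73 in CD4-CD8+ over CD4-CD8- cells (adjusted p = 0.0218 and 0.0190, edgeR), and Zbtb7b, which encodes ThPOK, rose by 3.30 in OT2 over OT1 mice.

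Gamma delta markers moved with the gate: edgeR called 6 of 6 lower in CD4+CD8+ and in CD4+CD8- over CD4-CD8- cells, and 5 of 6 lower in CD4-CD8+ over CD4-CD8- cells. Over all genes it called 2.22%, 0.950% and 0.950% in these pairs, in either direction. Summed per mouse, they were 438, 356 and 1038 CPM in OT2 NegSelected, PosSelected and NoSelection and 2101, 811 and 2184 CPM in OT1 NegSelected, PosSelected and NoSelection. Markers of natural killer and innate lymphoid cells summed to 0 to 20.9 CPM per mouse, and myeloid markers to 70.8 to 134 CPM. Their part in the member levels was not tested.

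Among 3549 genes with a mean of at least 50 CPM over the 17 sums, 4 of the 5 most like Tcf12 by Pearson correlation of log2(CPM + 10) were Cbl (0.94), Hipk1 (0.93), Phf2 and Rag1 (0.90 each). Those most like Id3 were Hivep3 (0.86), Mrpl21 (0.85), Polr2m (0.84), Ctsc (0.83) and Naa38 (0.82). Tcf3 was most like Rhoh (0.87) and Tia1 (0.85), and Id2 was most like Ckb (0.80) and Eno1 (0.78). Between members the values were 0.47 for Tcf3 with Tcf12, -0.14 for Id3 with Tcf12 and -0.48 for Id2 with Tcf12. These are descriptions over sums that share mice, and differ in depth from 1 gate to another, so no p is given.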

How the data were processed

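The data are RNA and antibody UMI counts per cell of 6 mice, deposited by the authors as sparse count matrices. Per the labels' protocols, libraries were made with 10x Genomics 5' v2 chemistry in 1 hashtagged lane. The tools named per the submitters' processing notes are Seurat and Cell Ranger 8.0.1, with build mm10. How hashtags were assigned and doublets treated is not given in the sources used here. No cell was removed further (lowest 506 genes per cell), and 0 barcodes were shared between mice. A mixture of 2 Gaussians on log2(antibody UMI + 1) set the CD4 and CD8A gates (scikit-learn 1.9.0). Counts were summed per mouse and gate (at least 20 cells, or 10 for CD69 and CD24 groups) and tested in R 4.3.3 with edgeR 4.0.16 (TMM, filterByExpr, quasi-likelihood, Benjamini-Hochberg at 0.05 over all genes tested), after tests on simulated data. Gate fits had the mouse as a block, and host and receptor fits were additive. SE is the absolute log2 fold change over the square root of F. DESeq2 1.42.0 and limma 3.58.1 gave alternatives. CPM is a gene's UMIs per 1000000 UMIs of its sum, and intervals are exact (95%, counting error). In the gate, CD69 and CD24 fits, p-values rest on how differences within a mouse vary between mice. In the host and receptor fits they rest on what the additive terms leave over, and with 1 mouse per group no spread within a group is measured. Genes were named by fixed lists and, for likeness, by the 5 highest correlations. The members and lists were chosen with earlier results of these data known. The receptor sequencing was not used, and 1 listed gene is not reported here.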

Additional observations from a re-analysis of the deposited data

Results flagged for a closer look

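Id2 over all cells of a mouse moved in opposite directions in the 2 receptors. PosSelected over NoSelection was 0.563 in OT2 (exact 95% interval for counting error 0.316 to 0.996; 25 and 29 UMIs) and 3.08 in OT1 (1.69 to 5.93; 46 and 15 UMIs). NegSelected over NoSelection was 0.338 in OT2 (0.153 to 0.698) and 2.63 in OT1 (1.35 to 5.32). The mice differed in how their cells fell into gates. Of the 29 Id2 UMIs of OT2 NoSelection, 13 came from its 7 CD4+CD8- cells. Within CD4-CD8- cells alone PosSelected over NoSelection was 0.908 in OT2 (0.317 to 2.48) and 1.94 in OT1 (0.710 to 5.55), and NegSelected over NoSelection was 0.605 in OT2 (0.14 to 2.04) and 2.98 in OT1 (1.18 to 8.10), so only the last interval lies off 1. The difference between receptors was not tested, since each receptor and host has 1 mouse. Without the 9 Zbtb16-positive cells the OT2 ratios were 0.676 (0.325 to 1.42) and 0.567 (0.238 to 1.3), both with intervals that include 1, and the OT1 ratios were 3.04 and 2.62. Leaving those cells out was chosen after the data were seen.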

How the results depend on the processing

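Of 919 alternative values for Id2, Id3, Tcf3 and Tcf12, 13 became called, 0 of the called values reversed and 62 changed sign without being called. The cause was not tested. The gate on antibody shares and the fits without Zbtb16-positive cells were chosen after seeing the data. Genes called over the 6 gate pairs were 341, against 1204 without a filter on low counts, 526 with DESeq2, 646 with sums of at least 10 cells, 619 without cells near the thresholds, 1761 with the gate on antibody shares and 110 to 796 with each mouse left out. Members called there were 0, against 2 without the filter, 2 with DESeq2, 1 with limma-voom, 4 with the gate on antibody shares and 0 to 1 with each mouse left out. For the gate by receptor fit, 1 gene was called, against 2 with RLE size factors, 41 without the filter, 2 with DESeq2, 3 with sums of at least 10 cells, 14 with the gate on antibody shares and 0 to 29 with each mouse left out (members 0 to 0). Over whole mice 98 genes were called, against 1021 without the filter, 337 without the deepest cells (over the UMI percentile 95) and 25 to 821 with each mouse left out; members called were 0, against 3 and 0 to 1. Within CD4-CD8- cells 31 genes were called, against 239 without the filter, 55 with limma-voom, 56 with the gate on antibody shares and 18 to 601 with each mouse left out; members called were 0, against 2 and 0 to 1. For CD69, 1 gene was called, against 10 without the filter, 0 with DESeq2, 3 with antibody UMIs as counted, 0 with the gate on antibody shares and 0 to 11 with each mouse left out; members called were 0, against 1 without the filter, 1 with antibody UMIs as counted and 0 to 1. For CD24, 331 genes were called, against 111 with DESeq2, 70 with antibody UMIs as counted, 163 with the gate on antibody shares and 128 to 342 with each mouse left out (members 0 to 0). Zbtb16, counted apart and among the members called above, was called in 7 of 24 alternative values over the whole-mouse contrasts and 5 of 24 within CD4-CD8- cells, all for OT2 over OT1, PosSelected over NoSelection or NegSelected over NoSelection, without the filter or with 1 mouse left out. Zbtb16 did not pass the filter of either main fit, and 39 of its 48 UMIs came from 5 cells of OT2 NoSelection. These Zbtb16 calls therefore rest on that 1 mouse. Gates and the CD69 and CD24 groups were compared within mice, and the gate fit without the mouse term called 426 genes and 0 members. Between hosts and receptors no paired analysis was possible because each group has 1 mouse. The comparison of Zbtb16-positive with other CD4-CD8- cells was not run. Low UMI totals of Id2 and Zbtb16 limit what can be seen of them.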
